A study of Mus musculus with 36 samples.

Results

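The facilitative glucose transporters of the Slc2a family were described in cultured mouse hepatocytes. The 9 genes Slc2a1, Slc2a2, Slc2a3, Slc2a5, Slc2a6, Slc2a8, Slc2a9, Slc2a10 and Slc2a12 were chosen by name, for belonging to this family, out of 52230 genes with a transcript in the files. 4 of them (Slc2a1, Slc2a2, Slc2a8 and Slc2a9) were among the 12177 genes that passed the filter on low counts and were tested, and the other 5 were below it.

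Slc2a proteins (GLUT proteins) carry hexoses across membranes down their concentration gradient, without spending energy. GLUT2, the product of Slc2a2, is the high-capacity, low-affinity transporter of the liver cell surface, which lets glucose equilibrate across the membrane in either direction. Inside the hepatocyte, glucokinase (GK) phosphorylates glucose, and the glucokinase regulatory protein (GKRP, gene Gckr) binds GK and holds it in the nucleus. GKRP occurs in humans with proline (446P) or leucine (446L) at residue 446. GLUT1, the product of Slc2a1, serves basal glucose uptake in most cell types and is known to increase when hepatocytes are kept in culture.

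RNA was sequenced from hepatocytes isolated from 3 female mice, 14 weeks old, of the GCKR-P446L-EMI-B6N strain. The labels give the genotype of mice 1 and 2 as Gckr-446L and that of mouse 3 as Gckr-446P/L, so every mouse carried a 446L allele. The cells received adenoviral vectors after attachment, spent the night in medium with 10 nM insulin and 10 nM dexamethasone, and were then incubated with 25 mM glucose for 4 h. Of the 10 conditions, 5 had endogenous GK: untreated cells that received no vector, and cells with a GKRP vector that was human 446P (hP), human 446L (hL), mouse 446P (mP) or mouse 446L (mL). The other 5 conditions had the GK vector, alone (GK) or with one of the same GKRP vectors (GK+hP, GK+hL, GK+mP, GK+mL). Untreated cells and GK alone had 2 cultures per mouse, which were summed, and the other 8 conditions 1 culture per mouse, giving 36 libraries and 30 samples. All 10 conditions were made from the same 3 mice, and no condition received an empty vector. Effects of the GK vector or a GKRP vector and of infection therefore cannot be told apart in comparisons with untreated cells. Conditions with GK and a GKRP vector received 1 vector more than GK alone or the same GKRP vector alone, so those comparisons also differ in the number of vectors.

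The 36 libraries held 3924674 to 10046158 assigned reads (median 5980276). CPM values are reads scaled to 1000000 per sample. Gckr reached 11251 to 23053 CPM with the mouse GKRP vectors at endogenous GK and 9010 to 20146 CPM with them and GK, and human GKRP could not be seen because the reads were assigned to mouse transcripts. One of the 6 GK-alone cultures, from mouse 3, had 1462 CPM of Gckr against 98 CPM in the parallel culture. Hepatocyte markers summed to 69383 to 135102 CPM in the 30 samples, against 273 to 373 CPM for macrophage, 73.8 to 161 for endothelial, 12.4 to 150 for stellate, 15.4 to 245 for cholangiocyte, 0.815 to 4.92 for leukocyte and 1.31 to 4.69 for erythroid markers. The T cell marker Cd3e was at 0 in 27 of the 30 samples, and no marker list had a called gene between GK alone and endogenous GK. In bulk RNA of this kind, fewer cells of a type and less RNA per cell cannot be told apart.

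Per unit of transcript length, Slc2a1 was the most abundant member in untreated hepatocytes, with 68.7 ± 14.5 TPM (SD, n = 3 mice), a unit that divides reads by transcript length and scales the sum to 1000000. Slc2a2 followed with 11.5 ± 6.23 TPM, Slc2a9, whose product transports urate, with 5.00 ± 2.16 TPM, and Slc2a8, a transporter held on internal membranes, with 1.07 ± 0.581 TPM. Slc2a1 and Slc2a2 did not overlap in untreated cells (53.6 to 82.6 against 4.84 to 17.2 TPM), and Slc2a8 stood below Slc2a9, with 0.646 to 1.73 against 3.16 to 7.37 TPM. Slc2a2 and Slc2a9 overlapped. In mean TPM over the 30 samples, Slc2a1 stood above 87.5% of the genes tested, Slc2a2 above 53%, Slc2a9 above 36.8% and Slc2a8 above 18.3%.

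The makeup of the family stood apart with GK alone. Slc2a1 made up 79.2 ± 0.422% of the summed TPM of the 9 genes in untreated cells and 77.5 to 85.3% as the mean of each other condition except GK alone, where its share was 64.9 ± 5.16% (59.2 to 69.3%). Slc2a2 made up 12.5 ± 4.79% in untreated cells and 28.1 ± 1.58% with GK alone, where the 3 mice lay between 26.9 and 29.9%. In the other 9 conditions the mean share of Slc2a2 was 5.75 to 14.4%. The summed TPM was 86.8 ± 18.8 in untreated cells and 113 ± 3.21 with GK alone. Shares of a sum are not independent of each other, and they were not tested.

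**Figure D1:**
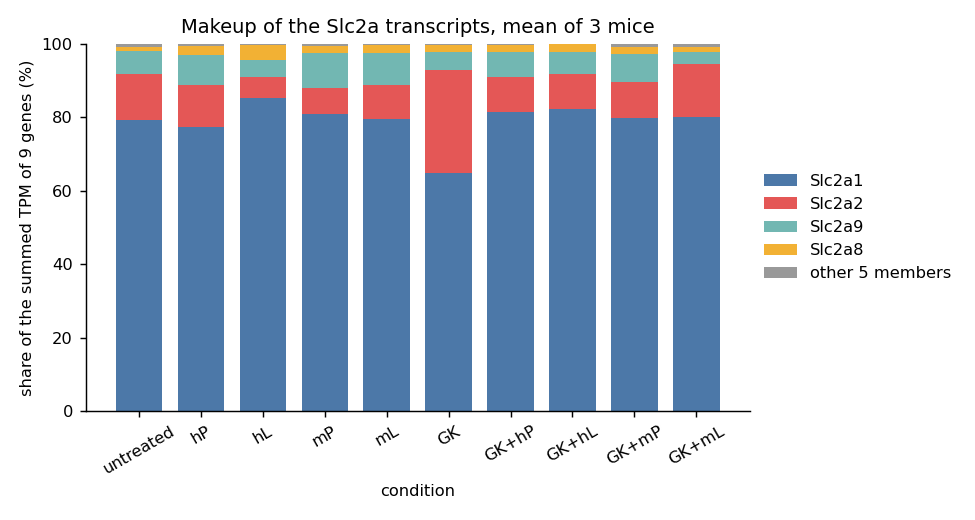
Share of the summed TPM of the 9 Slc2a genes (%, y axis) in each of the 10 conditions (x axis), as the mean of 3 mice. Slc2a2 takes 28.1% with GK alone and at most 14.4% in the other conditions.

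Slc2a2 lies on mouse chromosome 3 (ENSMUSG00000027690, GRCm39, chr3:28752051-28785508, plus strand), with 1 long noncoding RNA gene on the opposite strand inside its bounds. The stretch that the qPCR primers listed for Slc2a2 in the study enclose is printed here, since it is the part of the transcript that those primers measure. It is 96 bases long, lies wholly in the coding sequence, joins 67 bases of exon 7 to 29 bases of exon 8, and spans chr3:28773590-28775880. The capitals mark the 2 primer sites, of 18 and 26 bases.
Slc2a2 amplicon: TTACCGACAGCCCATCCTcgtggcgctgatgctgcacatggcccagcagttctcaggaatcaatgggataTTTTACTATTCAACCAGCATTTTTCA
Both sites were found in 3 transcripts of this gene and in no other gene among the transcripts searched.

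Slc2a2 was higher with GK alone than in any other condition. In untreated cells it was at 15.3, 45.9 and 45.8 CPM in mice 1, 2 and 3, and with GK alone at 61.7, 91.6 and 89.2 CPM. The 3 GK-alone samples were above all 27 other samples, of which the highest had 60.7 CPM, and 0.205% of the genes tested were likewise ordered. As single cultures, the 6 with GK alone had 59.9 to 101 CPM and the 6 untreated ones 14.4 to 47.7 CPM, so the cultures of these 2 conditions did not overlap. The lowest GK-alone culture was just below the GK+mL culture of mouse 2, which had 60.2 CPM in that scaling. Parallel cultures of one mouse differed by 1.01-fold to 1.25-fold, whereas GK alone was 4.02-fold, 2.00-fold and 1.95-fold above untreated cells in mice 1, 2 and 3.

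GK alone was then compared with the 5 endogenous-GK conditions combined, the comparison used in the study. Slc2a2 rose by a log2 fold change of 1.95 (SE 0.43, adjusted p = 0.033, edgeR quasi-likelihood test), the only call among the 4 members tested, where 0.394% of all genes tested were raised and 0.0328% lowered. The call was kept without mouse 1 (1.76, adjusted p = 0.0418) and lost without mouse 2 (2.27, adjusted p = 0.0904) and without mouse 3 (1.92, adjusted p = 0.934). It was also lost when the model carried transcript length as an offset (1.80, adjusted p = 0.14). With a mouse term, which takes out differences between animals, the log2 fold change was 2.13 (SE 0.26, adjusted p = 7.51e-06), and 1.3% of all genes were raised. The 5 combined conditions include the GKRP vectors. Their 15 samples came from the same 3 mice, and the fit without a mouse term treated them as separate samples.

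Against untreated cells alone, the difference of Slc2a2 was 1.18 (log2 fold change, SE 0.62) with an adjusted p = 1, in a comparison where 0.00821% of genes were raised. With the mouse term it was called raised, at 1.33 (SE 0.26, adjusted p = 0.0158), where 0.345% of genes were. All 3 mice were higher with GK alone, and 3.02% of the genes tested had 3 GK-alone samples above the 3 untreated ones. The culture of mouse 3 with 1462 CPM of Gckr had 80.3 CPM of Slc2a2 and its parallel culture 101 CPM, and leaving it out changed no call.

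**Figure D2:**
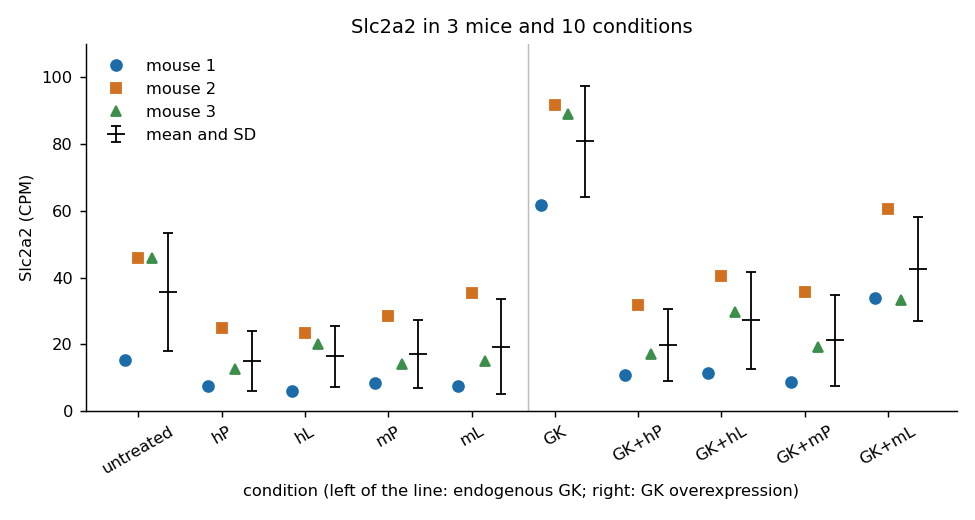
Slc2a2 (CPM, y axis) in each mouse (points) and condition (x axis), with the mean and SD of the 3 mice beside them. The 3 samples of GK alone lie between 61.7 and 91.6 CPM, above all other samples.

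At endogenous GK, every GKRP vector went with less Slc2a2 than untreated cells in all 3 mice. With hP the values were 7.60, 24.9 and 12.5 CPM in mice 1, 2 and 3, and with hL 6.09, 23.3 and 20.02 CPM. With mP they were 8.46, 28.3 and 14.2 CPM, and with mL 7.55, 35.2 and 15.1 CPM. Each mouse was lower than its own untreated cells, at 0.273 to 0.768 of that level, while the ranges of the conditions overlapped because mouse 1 was low throughout.

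Without the mouse term, no vector passed the test. The log2 fold changes against untreated cells were -1.25 (hP), -1.10 (hL), -1.07 (mP) and -0.90 (mL), each with SE 0.64 and adjusted p of 0.814 to 1, where 0.0739%, 0.0739%, 0.123% and 0.14% of genes were lowered. With the mouse term Slc2a2 fell with all 4, with log2 fold changes of -1.28 (adjusted p = 0.00945), -1.13 (0.0204), -1.10 (0.0206) and -0.99 (0.0426), where 0.501%, 0.46%, 0.895% and 0.673% of all genes were lowered. The mean of the 4 vectors was at -1.08 (SE 0.46, adjusted p = 0.398, background 0.402% lowered) without the mouse term and -1.13 (adjusted p = 0.00076, background 1.05%) with it. These 4 comparisons share the untreated samples.

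With GK overexpressed, adding a GKRP vector went with less Slc2a2 than GK alone, again in every mouse. GK+hP had 10.7, 31.7 and 17.2 CPM in mice 1, 2 and 3, and GK+mP 8.58, 35.6 and 19.3 CPM. GK+hL had 11.5, 40.3 and 29.7 CPM, and GK+mL 33.8, 60.7 and 33.3 CPM. Relative to GK alone in the same mouse, the 446P vectors left 0.139 to 0.389 of the level, hL 0.186 to 0.440 and mL 0.373 to 0.662. None of these samples reached the lowest GK-alone sample.

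The log2 fold changes against GK alone were -2.03 for GK+hP (SE 0.67, adjusted p = 0.377), -1.58 for GK+hL (SE 0.66, 0.676), -1.94 for GK+mP (SE 0.67, 0.214) and -0.92 for GK+mL (SE 0.64, 1). None was called, where 0.0985%, 0.00821%, 0.205% and 0% of all genes were lowered. With the mouse term Slc2a2 fell with 3 of the 4 vectors, at -2.19 with GK+hP (adjusted p = 0.00447), -1.76 with GK+hL (0.0486) and -2.15 with GK+mP (0.0036), where 0.55%, 0.312% and 2.37% of genes were lowered. GK+mL was at -0.96 (adjusted p = 0.293) and not called in this model of 6 groups, but in the model of 10 conditions with a mouse term it was called lowered too, at -0.97 (SE 0.26, adjusted p = 0.0439), where 0.452% of genes were lowered. The mean of the 4 was -1.62 (SE 0.45, adjusted p = 0.0636, background 0.501% lowered) without the mouse term and -1.77 (adjusted p = 1.31e-06, background 1.42%) with it. These comparisons share the GK-alone samples with each other and with those above.

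The difference between the GKRP forms was tested directly. With GK overexpressed, GK+mL was above GK+mP by a log2 fold change of 1.01 (SE 0.64, adjusted p = 1, where 0.0164% of genes were raised) and by 1.18 with the mouse term (adjusted p = 0.104), so it was not called in either model. GK+hL was above GK+hP by 0.45, and the difference between the mouse and the human pair was 0.56 (SE 0.90). At endogenous GK, hL differed from hP by 0.15 and mL from mP by 0.17. Over the 12 pairs of the same mouse, species and GK level, Slc2a2 was higher with 446L in 9, with ratios of 0.801 to 3.94. The highest ratio was that of GK+mL to GK+mP in mouse 1. By TPM, Slc2a2 was higher with 446L in 7 of the 12 pairs. The share of all genes with 9 such pairs was not counted.

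The GK vector was also compared at a fixed GKRP vector. Slc2a2 was higher with GK than without in every mouse and for every vector, by 1.27-fold to 1.41-fold with hP, 1.48-fold to 1.88-fold with hL, 1.01-fold to 1.36-fold with mP and 1.72-fold to 4.48-fold with mL. The log2 fold changes were 0.40, 0.70, 0.32 and 1.15, and none was called without the mouse term, where 0%, 0%, 0% and 0.0164% of genes were raised. With it, GK+mL against mL was called raised at 1.35 (SE 0.28, adjusted p = 0.0351), where 0.222% of genes were.

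**Figure D3:**
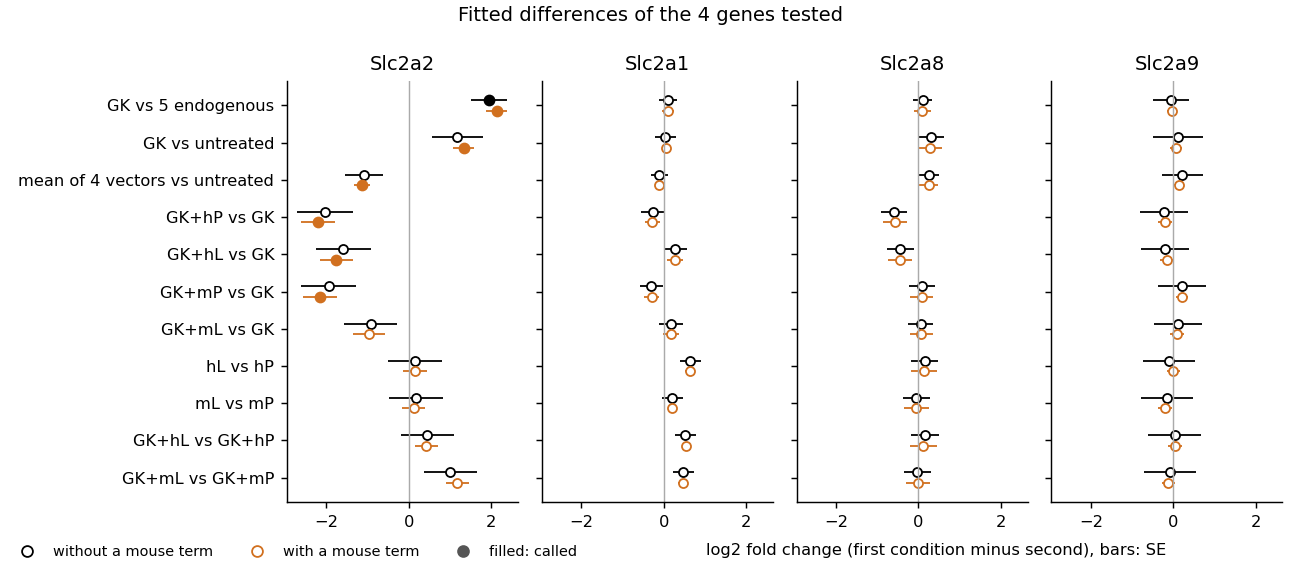
Log2 fold changes (x axis, bars SE) of the 4 members tested in 11 comparisons (y axis), without and with a mouse term in the model. Filled points passed the call rule, and all of them belong to Slc2a2.

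Reads of Slc2a2 were divided among annotated transcripts. The full-length coding transcript Slc2a2-201 took 57.9% of the gene's reads, the nonsense-mediated decay transcript Slc2a2-202 26% and the retained-intron transcript Slc2a2-203 16.1%. Slc2a2-201 took 55.5 to 73.6% in the 6 GK-alone libraries (median 64.4%) and 46.8 to 71.4% in the 6 untreated ones (median 57.6%), so the ranges overlapped. On the TPM scale, which divides by length, the shorter decay transcript Slc2a2-202 took a median of 52.5% of the gene over the 36 libraries (25 to 81.3%) and Slc2a2-201 18.8% (5.32 to 38%), so the TPM of Slc2a2 given above is not that of the coding transcript. For Slc2a1, the coding Slc2a1-201 took 49.1% of reads and the decay transcript Slc2a1-204 44.1%, with median TPM shares of 24.5% and 31.7%. Reads of Slc2a9 were spread over Slc2a9-210 (32.6%), Slc2a9-203 (24.6%) and Slc2a9-205 (16.9%).

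The genes whose levels moved most like Slc2a2 across the 30 samples, with each mouse centred on its own mean, were Pygl (Pearson r = 0.904), Txnip (0.896), Ddhd2 (0.894), Slc30a10 (0.887) and Fam124a (0.882), out of 9236 genes compared. Pygl encodes the liver glycogen phosphorylase, Txnip a thioredoxin-binding arrestin that promotes the internalisation of glucose transporters, Ddhd2 a lipase and Slc30a10 a manganese exporter. The samples share mice and libraries, so these correlations are a description. Between GK alone and the 5 endogenous-GK conditions, Txnip rose by a log2 fold change of 3.10 (SE 0.47, adjusted p = 0.000345) and Ddhd2 by 1.12 (SE 0.17, adjusted p = 0.000388). Pygl (0.61, adjusted p = 0.671), Slc30a10 (1.39, 0.719) and Fam124a (0.71, 0.0962) were not called there without the mouse term and were with it (5.23e-06, 0.000152 and 0.000684).

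The promoters of Slc2a2 and of its like genes were searched for the carbohydrate response element, to which the glucose-sensing factor ChREBP binds, and which consists of a pair of E boxes with 5 bases between. The paired motif searched for had both E boxes in the same orientation. Pairs with the boxes on opposite strands were not searched for, so the search cannot settle which genes hold the element. The 250 bases before the start of 3 of these genes are shown, to set Slc2a2 beside the genes of this group that hold that motif. They are printed 5′ to 3′ on the gene's strand, with matches to CACGNG on either strand in capitals. They lie at chr3:28751801-28752050 (plus strand), chr3:96465017-96465266 (plus) and chr8:26244440-26244689 (minus) of GRCm39.
Slc2a2 promoter: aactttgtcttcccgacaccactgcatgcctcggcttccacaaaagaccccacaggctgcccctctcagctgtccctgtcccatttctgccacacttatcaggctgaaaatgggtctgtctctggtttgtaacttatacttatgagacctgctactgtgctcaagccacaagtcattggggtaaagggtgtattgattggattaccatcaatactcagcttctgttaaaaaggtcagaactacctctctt
Txnip promoter: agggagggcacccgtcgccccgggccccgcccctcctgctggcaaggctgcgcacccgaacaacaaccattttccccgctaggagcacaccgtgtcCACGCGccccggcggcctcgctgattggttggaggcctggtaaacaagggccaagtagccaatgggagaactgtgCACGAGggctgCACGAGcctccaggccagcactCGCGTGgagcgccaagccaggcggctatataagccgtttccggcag
Ddhd2 promoter: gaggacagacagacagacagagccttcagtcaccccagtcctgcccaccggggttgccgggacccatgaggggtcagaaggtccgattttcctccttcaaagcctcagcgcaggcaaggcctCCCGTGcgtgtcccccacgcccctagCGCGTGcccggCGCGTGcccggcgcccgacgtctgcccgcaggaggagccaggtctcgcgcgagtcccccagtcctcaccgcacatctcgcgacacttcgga
Txnip held 4 matches and Ddhd2 3, and in each gene 2 of them formed the pair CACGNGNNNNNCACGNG, with the single motif counted inside it. Slc2a2 held none in this window. Of the other like genes, Fam124a held 3 matches, Slc30a10 1 and Pygl 0, and none held the pair in the same orientation. In Fam124a, CACGCG and CCCGTG matched on opposite strands with 5 bases between. That arrangement was not searched for and is not part of the share of promoters with the pair. Of 21757 promoters of this length, 24.4% held CACGNG and 11, or 0.0506%, held the pair in the same orientation. The motif was chosen with the like genes known, and a match is a description of letters.

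Slc2a1 was not called in any of the 21 comparisons, but within each mouse it was higher with 446L than with 446P. Slc2a1 (ENSMUSG00000028645) lies at chr4:118965908-118996365 on the plus strand. At endogenous GK, hP gave 96.7, 143 and 109 CPM in mice 1, 2 and 3 and hL 123, 251 and 173 CPM, while mP gave 95.2, 131 and 101 CPM and mL 103, 150 and 125 CPM. With GK, GK+hP gave 92.6, 152 and 118 CPM and GK+hL 138, 199 and 188 CPM, while GK+mP gave 105, 130 and 117 CPM and GK+mL 133, 187 and 171 CPM. The sample with 446L was the higher in 12 of 12 pairs of the same mouse, species and GK level, by 1.08-fold to 1.76-fold (median 1.37), and 0.501% of the genes tested had all 12 pairs this way. Parallel cultures of one mouse and condition differed by 1.13-fold to 1.58-fold (median 1.31) in Slc2a1. That ratio is the higher culture over the lower, so unlike the ratio of 446L to 446P it has no direction. In TPM, where the estimated length of the transcripts enters, Slc2a1 was higher with 446L in 7 of the 12 pairs.

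The log2 fold changes of Slc2a1 for 446L against 446P were 0.65 for the human pair, 0.21 for the mouse pair, and 0.53 and 0.48 for those pairs with GK, each with SE 0.25 and adjusted p = 1, where 0%, 0%, 0% and 0.0164% of genes were raised. The mean of the 4 differences, a contrast added after the values were seen, was 0.47 (SE 0.12, adjusted p = 0.706, where 0.00821% of genes were raised). With the mouse term it was 0.46 (SE 0.06) and was called, at an adjusted p = 7.67e-05, where 0.485% of genes were raised, but as a contrast chosen from these values it is no independent test. Between GK alone and untreated cells Slc2a1 differed by less than the spread between mice, with 127, 174 and 133 CPM in mice 1, 2 and 3 against 122, 186 and 111 CPM in untreated cells.

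**Figure D4:**
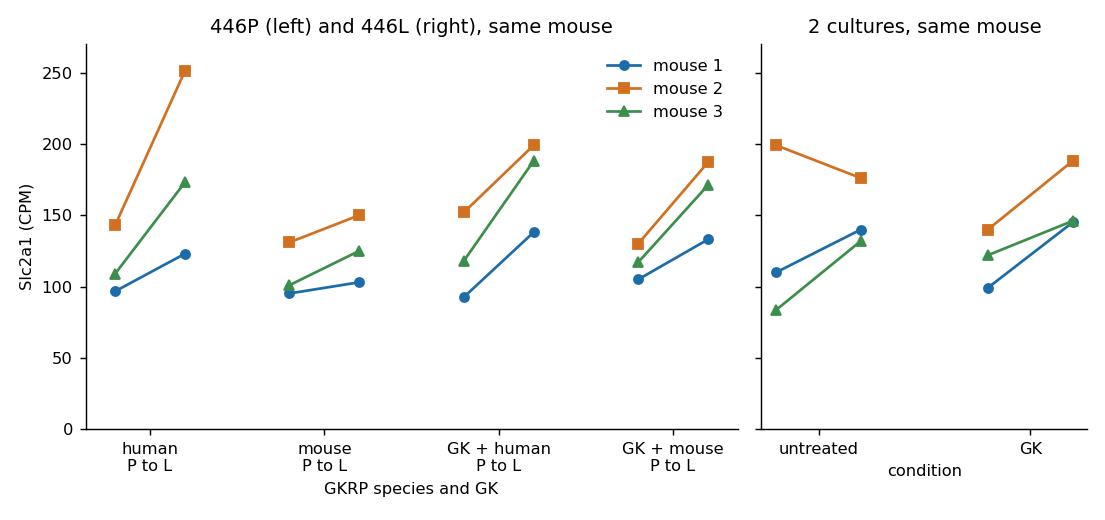
Slc2a1 (CPM, y axis) with 446P and 446L in the same mouse, joined by a line, for human and mouse GKRP without and with GK (left), and in the 2 parallel cultures of each mouse for untreated cells and GK alone (right). All 12 lines rise from 446P to 446L, and the parallel cultures differ by up to 1.58-fold.

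The genes most like Slc2a1 across the 30 samples were Adm (Pearson r = 0.872), which encodes the vasodilator peptide adrenomedullin, Vegfa (0.871), the main growth factor of blood vessels, and Rnf217 (0.824), a ubiquitin ligase gene. Adm was higher with 446L in 12 of 12 pairs (median 2.16-fold), and so was Vegfa (median 1.47-fold), while by TPM the counts were 11 and 10. These counts are no separate evidence, since both genes were picked for their likeness to Slc2a1 in the same samples. Between parallel cultures Adm differed by up to 2.08-fold and Vegfa by up to 1.68-fold. Slc2a1, Adm and Vegfa are known targets of the hypoxia-inducible factors. The letters ACGTG, a form of the core of the hypoxia response element, were searched for on either strand. They were not found in the 250 bases before Slc2a1, Adm, Vegfa or Rnf217, and 17% of all promoters held them. Other forms of the core, such as GCGTG, and sites farther from the start were not searched, so a part of these factors was not tested.

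Slc2a9 (ENSMUSG00000005107, chr5:38506616-38660486, minus strand) differed between mice rather than conditions. It was at 13.1 to 19.9 CPM in the 10 samples of mouse 1, at 5.09 to 7.51 CPM in mouse 2 and at 5.45 to 8.90 CPM in mouse 3. The lowest sample of mouse 1 was above all 20 samples of the other mice, as was so for 3.32% of the genes tested. Each mouse is 1 animal, and mice 1 and 2 share a labelled genotype. Across conditions the log2 fold changes of Slc2a9 were -0.42 to 0.31 and none was called.

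Slc2a1 and Slc2a2 also differed between mice, both being highest in mouse 2 in 10 of 10 conditions. Their medians over conditions were 114, 163 and 121 CPM for Slc2a1 and 9.64, 35.4 and 19.7 CPM for Slc2a2 in mice 1, 2 and 3. In untreated cells Slc2a2 was nearly equal in mice 2 and 3, at 45.88 and 45.84 CPM. Slc2a8 (ENSMUSG00000026791, chr2:32861636-32872231, minus strand) was highest in mouse 1 in 5 conditions, in mouse 2 in 3 and in mouse 3 in 2, within 1.90 to 5.16 CPM over all samples. Its log2 fold changes were -0.59 to 0.37, none of them called.

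**Figure D5:**
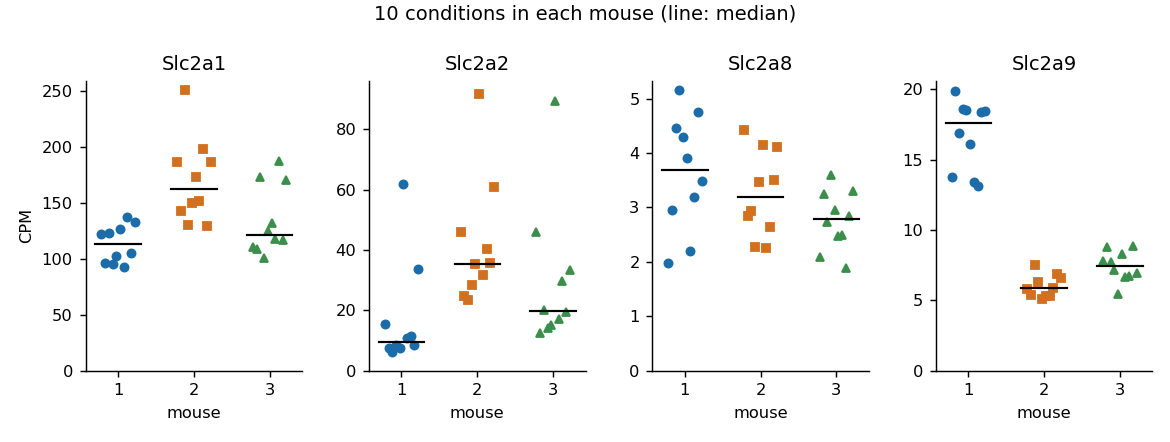
Level (CPM, y axis) of the 4 members tested in each mouse (x axis), 1 point per condition, with a line at the median. Slc2a9 in mouse 1 (13.1 to 19.9 CPM) lies above both other mice, and Slc2a2 has its lowest median in mouse 1.

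Over all 21 comparisons and the 4 members tested, 84 tests in all, 1 was called raised and 0 lowered without the mouse term, and 3 raised and 9 lowered with it, all of Slc2a2. The 63 tests of Slc2a1, Slc2a8 and Slc2a9 gave 0 calls in either model and 0 with DESeq2, with 2 of them at an unadjusted p under 0.05 without the mouse term and 8 with it. Their smallest adjusted p was 0.758 without and 0.0546 with the mouse term, the latter for Slc2a1 in hL against hP.

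The other 5 members were near the limit of detection. Over all 36 libraries together, Slc2a3, the high-affinity neuronal transporter, had 63.5 reads, Slc2a6, a lysosomal transporter of myeloid cells, 40.2, and Slc2a5, the fructose transporter of the intestine, 27.9. Slc2a12 had 7.1 reads in 7 libraries and Slc2a10 4 reads in 4 libraries. No sample exceeded 0.759 CPM for any of them, where 3 counts correspond to 0.501 CPM in a sample of median depth, so differences between conditions were not detectable at this depth. With no filter on low counts, 105 tests of these genes gave 0 calls, with 2 at an unadjusted p under 0.05.

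Other genes of glucose handling were counted by lists, in the comparison of GK alone with the 5 endogenous-GK conditions. Among the genes of hexose phosphorylation and release, Tkfc, a triokinase (1.51, adjusted p = 2.54e-09), and G6pc1, the glucose-6-phosphatase (3.17, adjusted p = 0.00217), rose. Of 18 genes that handle GLUT proteins in the cell, 2 rose: Txnip and the related arrestin Arrdc4 (1.89, adjusted p = 0.000112), where 0.394% of all genes tested were raised. No gene was called among 18 transcription factors of liver GLUT genes, 4 glucose 6-phosphate exchangers and 3 of 12 other sugar transporters that were tested. With the mouse term further list genes were called raised, namely Khk, the fructose kinase, Slc37a4, the exchanger that brings glucose 6-phosphate to G6pc1 (1.08, adjusted p = 5.79e-06), Slc45a3, a sugar transporter (0.47, adjusted p = 0.0446), Mlxipl, the gene of ChREBP (0.65, adjusted p = 0.0166), and Foxa3, a liver transcription factor. With that term 1.3% of all genes tested were raised. The medians without it over the other 4 lists were 0.06 for GLUT handling, 0.06 for the transcription factors, 0.07 for the exchangers and 0.18 for the other sugar transporters, against -0.01 over all genes.

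When the 4 GKRP vectors with GK were compared with GK alone, Slc2a2 was called lowered only with the mouse term (-1.77, adjusted p = 1.31e-06), as given above. Without the mouse term, Tkfc fell (-1.05, adjusted p = 2.25e-06), where 0.501% of all genes tested were lowered. G6pc1 (-2.28, adjusted p = 0.0584) was not called without the mouse term and was with it (-2.11, adjusted p = 0.000134). Among the genes that handle GLUT proteins, Txnip (-2.22, adjusted p = 0.00345), Arrdc4 (-1.35, adjusted p = 0.00275) and Snx27, a retromer-associated sorting nexin (-0.68, adjusted p = 0.0014), fell. Txnip (-1.69, adjusted p = 0.0403) and Snx27 (-0.61, adjusted p = 0.00352) also fell with the vectors against untreated cells, the comparison in which Slc2a2 was at -1.08 and 0.402% of genes were lowered. With the mouse term, Slc37a4 (-0.66, adjusted p = 0.0023) and Lnpep, an aminopeptidase of GLUT4 vesicles (-0.64, adjusted p = 0.00672), were also called lowered with the vectors and GK against GK alone. In that model and comparison 1.42% of all genes tested were lowered. Tbc1d4, a Rab GTPase-activating protein of GLUT4 traffic, was then called raised there (0.63, adjusted p = 0.0298) and against untreated cells (0.83, adjusted p = 0.00556), as was Mlxipl against untreated cells (0.57, adjusted p = 0.00619). The shares of all genes raised in these comparisons are not given here.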

How the data were processed

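Hepatocyte RNA from 36 libraries was analysed. Per the labels and the methods of the study, the authors checked reads with FastQC and quantified them with Salmon 1.4.0 against GRCm39 transcripts (Gencode M26). The deposited files hold estimated counts (expected counts) and TPM per transcript, where TPM was made by the authors' tool from the count and an effective length. The read strand setting is not given in the sources used here. Antisense and overlapping genes can therefore share reads.

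Here, counts were summed per gene by Ensembl ID with the Gencode M39 annotation (98.81% of 139225 transcripts matched, 0.392 to 0.639% of reads unmatched) and rounded, and the 2 cultures of one mouse and condition were summed. Genes were filtered with filterByExpr, scaled by TMM (CPM values too) and tested with the quasi-likelihood test of edgeR 4.0.16 (R 4.3.3, limma 3.58.1). GK alone against endogenous GK, and each GKRP vector with GK against GK alone, came from a model of 6 groups in which the 5 endogenous-GK conditions were one group, and the others from a model of 10 conditions. A call needed a Benjamini-Hochberg adjusted p under 0.05 over all 12177 genes and a fold of at least 1.3 or at most 0.7. Log2 fold changes are fitted values.

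The main model had no mouse term. Samples with the same number came from the same animal, and over 135 such pairs the mean correlation, after removing condition means, was 0.223 (82.2% over 0.1), against -0.11 for different mice, so the fit with the mouse as a block is printed beside a member's result where it changes the call. Alternatives were DESeq2 1.42.0, RLE scaling, other filters, single cultures, transcript length offsets, and leaving out each mouse or the GK culture with most Gckr. Added after seeing the data were a covariate for effective length, the mouse block in the model of 10 conditions for comparisons with GK alone, and the mean 446L contrast. The scripts were tested on simulated data.

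The genes and lists were chosen with earlier results of these data known. Named outside the family were the 5 genes (Slc2a2) or 3 genes (other members) with the highest Pearson correlation, and called or extreme list genes. Results for some genes are not reported here. P-values measure the spread among cultures of 3 mice only.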

Additional observations from a re-analysis of the deposited data

How the results depend on the processing

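Leaving out one mouse moved the count of members called between GK alone and the 5 endogenous-GK conditions between 0 and 1, and the transcript length offset took it to 0. The mouse as a block took the calls from 0 to 1 for GK alone against untreated cells, from 0 to 5 for the vectors against untreated cells (4 vectors and their mean), from 0 to 4 for the vectors with GK against GK alone and from 0 to 1 for GK added to the same vector. With the block and effective length together these were 1, 4, 4 and 0, and with the block in a model of 10 conditions the vectors with GK against GK alone gave 5. For the vectors with GK against GK alone, DESeq2, no filter on low counts and each culture as a sample gave 1 call each. The block also took the share of all genes raised from 0.00821% to 0.345% for GK alone against untreated cells. The share lowered went from 0.402% to 1.05% for the mean of the vectors against untreated cells. For the mean of the vectors with GK against GK alone it went from 0.501% to 1.42%. Shares under the remaining alternatives are not given here. Slc2a1 was higher with 446L in 7 of 12 pairs by TPM. With the length offset the log2 fold change became -0.33 for Slc2a2 in hL against hP, -0.08 for Slc2a2 in GK+hP against hP, -0.20 for Slc2a1 in mL against mP and -0.05 for Slc2a1 with GK alone. Leaving out one mouse gave -0.15 to 0.41 for Slc2a2 in hL against hP, -0.05 to 0.22 for Slc2a8 and -0.12 to 0.02 for Slc2a9 with GK alone. The cause was not tested. Slc2a2 with GK alone against the 5 conditions stayed between 1.76 and 2.27 in all 15 alternatives. The other calls of members in the 21 comparisons were not changed by the block. Depth limits the 5 low members, and 3 mice limit every comparison.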

Other observations

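Slc2a4, the insulin-responsive transporter of muscle and fat, was no member of the set described and was below the filter on low counts. It had 19.4 reads over the 36 libraries, of which 18.4 were in the 18 libraries with the GK vector. The 6 GK-alone libraries held 13 of these reads and the 6 untreated libraries 0. Slc2a7 had 0 reads and Slc2a13, the proton-coupled inositol transporter, 5 reads. These genes were named after their values were seen, and no test was made on them.

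Across the 30 samples, with each mouse centred on its own mean, Slc2a1 and Slc2a2 correlated at r = 0.31, and so did Slc2a8 and Slc2a9 (0.31), while the other pairs of tested members lay between -0.06 and -0.04. Avpi1 (0.792) was the gene most like Slc2a8 and Fcsk (0.711), a fucose kinase gene, the one most like Slc2a9.

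The estimated effective length of the transcripts, as a percentage of their full length, had medians per library of 47.3 to 84% with 446L (median 68.2%) and 57 to 78.7% with 446P (median 70.8%), which enters TPM and not the counts. Its part in the difference between the count and TPM comparisons of Slc2a1 was not tested.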
